A study of Mus musculus with 6 samples.

Results

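Homologous recombination copies an intact DNA molecule to mend a double-strand break, and the Fanconi pathway unhooks and repairs DNA interstrand crosslinks. The 39 genes described here encode the kinases, resection factors, BRCA proteins, strand-exchange cofactors, nucleases and Fanconi proteins of both pathways. They were chosen by name, as the probes whose gene name on the array equals one of the 39, and all 39 of the 37074 gene names on the array were found. Members and lists were picked by function, with earlier results of these arrays known.

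LSK cells, the lineage-negative Sca1+ c-Kit+ fraction of the bone marrow that holds haematopoietic stem cells and early progenitors, were sorted from C57BL/6 mice at P6 to P8. Control mice were Atg5w/w;VaviCre+ and the others Atg5f/f;VaviCre+ (Atg5f/f;Vav), so that both groups carried the Vav-iCre transgene, which is expressed in blood-forming cells from fetal life and deletes the floxed Atg5 alleles only in the second group. Atg5 is needed to build autophagosomes, and the comparison asks how transcripts of LSK cells differ when it is lost in the blood lineage. There were 3 arrays per group, with 1 array per sample. The labels do not say whether a sample was 1 mouse or a pool, so p-values measure only the spread between arrays.

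As background, ATM and ATR are kinases that sense broken and stalled DNA and act through CHEK2 and CHEK1. The MRE11-RAD50-NBN complex with RBBP8, EXO1 and BLM trims the ends, BRCA1, BARD1, PALB2 and BRCA2 prepare the single strand for strand exchange, and cofactors such as RAD54 help it to find and invade the sister. At a crosslink, the Fanconi core complex with UBE2T attaches ubiquitin to FANCD2 and FANCI, and USP1 takes it off. Inherited loss of Fanconi genes causes bone marrow failure in people, and most of these genes are transcribed more in cycling than in resting cells.

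Values are log2 intensities relative to the 75th percentile of the array, so 0 is the 75th percentile, and the brightest tested probe of a gene stands for it. Changes are Atg5f/f;Vav minus control, with the standard error (SE) from limma, and a gene was called when its adjusted p (limma, Benjamini-Hochberg over all 32074 probes tested) was at most 0.05. A probe reports a share of RNA, so a change in the make-up of the sorted cells and a change in transcript per cell cannot be told apart. The sole Atg5 probe (chr10:44083997-44084056, mm9, from base 2251 of the transcript) read 1.10, 0.93 and 1.06 on control arrays and 1.46, 1.51 and 1.74 on Atg5f/f;Vav arrays. The sources used here do not tie that probe to the deleted part, so it is no check of the deletion. Between 59.4% and 59.9% of non-control spots were well above background on the control arrays, and 53.6% to 56.7% on the others. All 6 arrays lay on 1 slide, with row 1 holding the control arrays and row 2 the rest, and the effects of row and genotype cannot be told apart.

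All 39 members were tested, each with a representing probe well above background on all 6 arrays. Of these, 21 were higher and 1 was lower in Atg5f/f;Vav LSK cells, and 17 were not called. Over all 20778 genes tested, 18.7% were called higher and 15.3% lower. With the 75th percentile taken only over probes well above background on all 6 arrays, the split over all genes turned from 3887 higher and 3189 lower to 2387 higher and 6028 lower, and 10 members were called higher and 1 lower. The log2 fold change was above 0 for 37 members (31 with that other scaling, and 35 with quantile normalisation), and their median was 0.46 on the log2 scale against -0.03 over all genes. A fit limited to probes well above background on all 6 arrays, as the members' were, held 18400 genes. There the median over all genes was 0.02, with 4146 called higher, and 22 members were called higher. The groups did not overlap for 31 of 39 members (79.5%), against 56.0% of all genes, and 9 of these 31 were not called. The number of calls depended on single arrays, for the members and for all genes. With control replicate 1 or control replicate 2 left out, 0 members were called in either direction by limma. Over all genes, 124 were then called higher and 77 lower without control replicate 1, and 108 and 54 without control replicate 2. At an unadjusted p under 0.05 (limma), 21 and 19 members were higher and 1 lower in each case. The members' median stayed between 0.37 and 0.53 whichever array was left out.

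**Figure D1:**
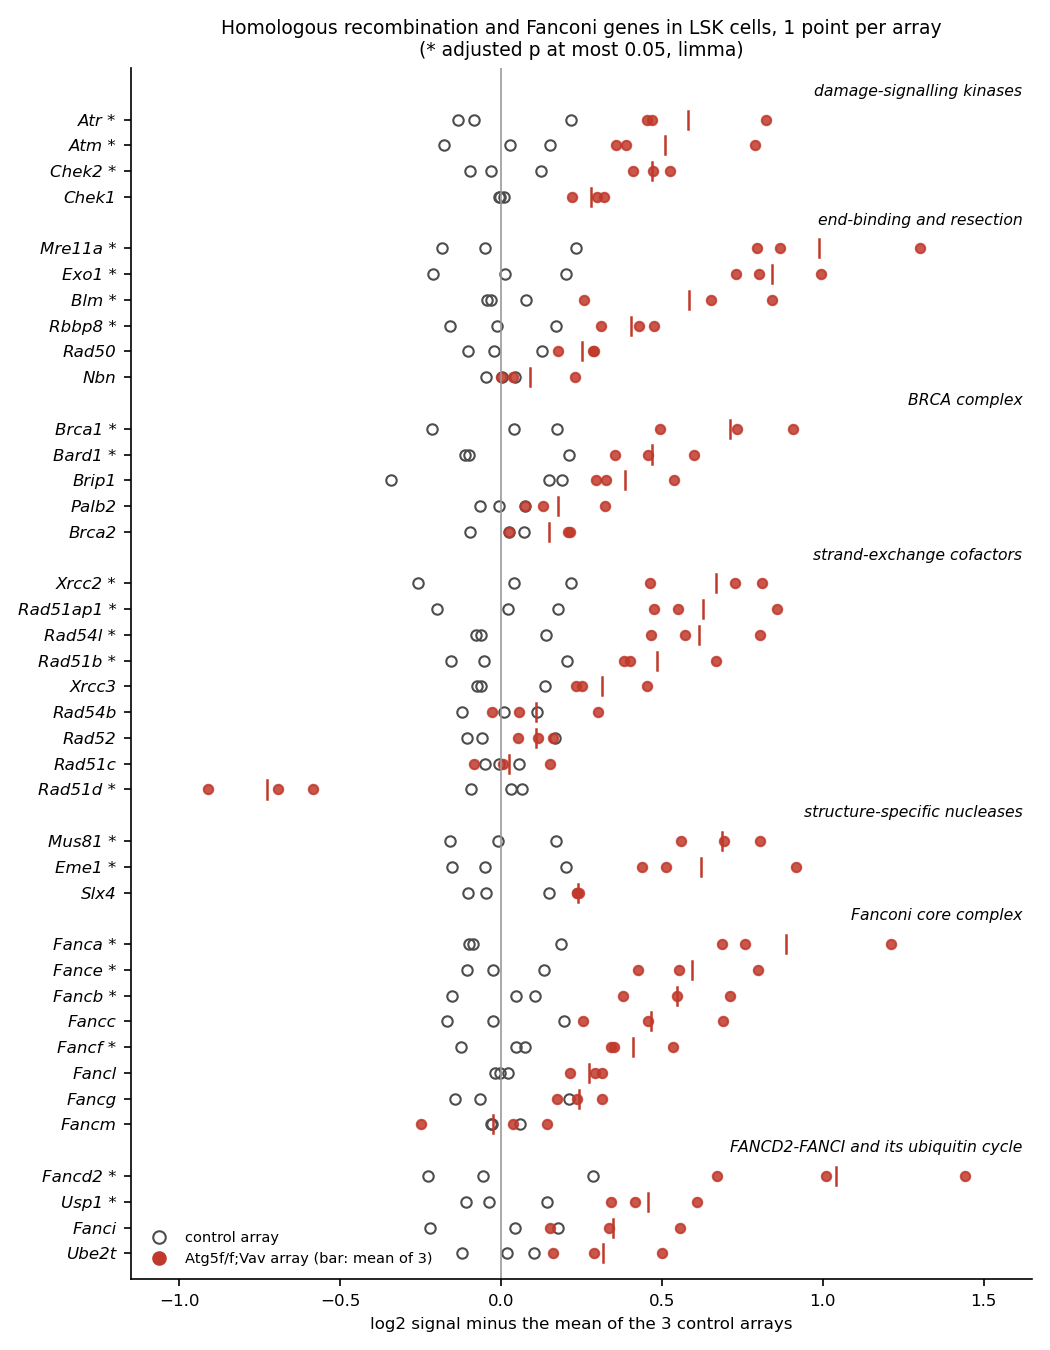
Log2 signal of the 39 members on each array, as the difference from the mean of the 3 control arrays of that gene. Open circles are control arrays, red circles Atg5f/f;Vav arrays, red bars their means, and asterisks mark the 22 members past the threshold; Rad51d is the sole member whose red points all lie left of the control points.

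Among the damage-signalling kinases, 3 of 4 rose, with a median of 0.49. Beside this count, and that of each role and list below, stand the shares of all genes, 18.7% called higher and 15.3% lower. The roles hold few genes each, and differences between roles were not tested. The change was 0.58 ± 0.16 (SE, n = 3 arrays per group) for Atr, the kinase of stalled forks, 0.51 ± 0.16 for Atm, the kinase of double-strand breaks, and 0.47 ± 0.11 for Chek2, which Atm activates. Chek1, the effector of Atr, was 0.28 higher and did not pass at its brightest probe (adjusted p = 0.0637, limma). Its 3 Atg5f/f;Vav arrays lay above all control arrays, and groups were apart for 56.0% of all genes. Atm was the member closest to the threshold from inside (adjusted p = 0.047, limma) and Fancc the closest from outside (adjusted p = 0.0573, limma).

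Of the end-binding and resection genes, 4 of 6 rose, with a median of 0.49. Mre11a, the nuclease that opens resection, read 1.21, 1.08 and 1.49 on control arrays and 2.06, 2.13 and 2.56 on Atg5f/f;Vav arrays. Its groups were far apart, with the lowest Atg5f/f;Vav array above the highest control array, and its level was 1.98-fold higher (log2 0.99 ± 0.18, adjusted p = 0.0161, limma). The Mre11a probe lies at chr9:14638340-14638399 (mm9). Its partners in the complex moved less: Rad50 was 0.25 ± 0.11 higher and Nbn 0.09 ± 0.11 higher, and neither passed.

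Exo1, the exonuclease of long-range resection, read 1.32, 1.10 and 1.51 on control arrays against 2.11, 2.04 and 2.30 on Atg5f/f;Vav arrays. These groups did not overlap either, and the rise was 1.79-fold (log2 0.84 ± 0.14, adjusted p = 0.0154, limma; probe at chr1:177838682-177838741, mm9). Blm, the helicase that works with Exo1, rose by 0.58 ± 0.16, and Rbbp8, which switches on the Mre11a nuclease, by 0.40 ± 0.13.

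In the BRCA complex, 2 of 5 rose, with a median of 0.39. Brca1 read -0.18, -0.43 and -0.05 on control arrays and 0.51, 0.28 and 0.69 on Atg5f/f;Vav arrays. Control replicate 2 was the lowest control and Atg5f/f;Vav replicate 2 the lowest of its group, yet the groups stayed apart, with a 1.64-fold rise (log2 0.71 ± 0.16, adjusted p = 0.0201, limma; probe at chr11:101350409-101350468, mm9). Bard1, the obligate partner of Brca1 in its ubiquitin ligase, rose by 0.47 ± 0.14. Brip1, the helicase that binds Brca1, was 0.39 ± 0.17 higher, Palb2, the bridge to Brca2, 0.18 ± 0.12 and Brca2, which acts on the resected strand, 0.15 ± 0.11, and none of these passed.

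Among the strand-exchange cofactors, 4 of 9 rose and 1 fell, with a median of 0.31. The rises were 0.67 ± 0.16 for Xrcc2, 0.63 ± 0.15 for Rad51ap1, 0.61 ± 0.13 for Rad54l, the motor that drives strand invasion, and 0.48 ± 0.14 for Rad51b. Xrcc3 was 0.31 higher and Rad54b, Rad52 and Rad51c between 0.02 and 0.11 higher, none of them past the threshold. RAD51B, RAD51C, RAD51D and XRCC2 form one complex. At the brightest probes of its 4 genes, Rad51b and Xrcc2 rose, Rad51c did not pass and Rad51d was called lower. The other tested probes of Rad51b, Xrcc2 and Rad51c differed by -0.28, 0.03 and -0.13, and none was called.

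Rad51d was the only member called lower at its brightest probe. That probe read -0.06, 0.07 and 0.10 on control arrays and -0.65, -0.55 and -0.87 on Atg5f/f;Vav arrays, a change of -0.73 ± 0.13 (adjusted p = 0.0154, limma). The other 2 Rad51d probes read higher in Atg5f/f;Vav cells, by 0.35 ± 0.11 (adjusted p = 0.0502, limma) and 0.39 ± 0.15 (adjusted p = 0.0817, limma). On each of those 2 probes too, every Atg5f/f;Vav array lay above every control array. The probes lie on the minus strand of chromosome 11, and the one that fell starts at base 6988 of NM_011235, against 1334 on the same accession and 959 on NM_001277939 for the others. The first 30 bases of each probe are shown because the direction of Rad51d depends on which of them is read (mm9, minus strand).
Rad51d base 6988, chr11:82686619-82686648: ctgtttggggaaaggcgtgtgctttataaa
Rad51d base 1334, chr11:82692273-82692302: attgtgtgagatctcatggagcccctggcc
Rad51d base 959, chr11:82692809-82692838: ctcgagattgggatggtagaagattcaaac

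Of the structure-specific nucleases, which cut branched intermediates, 2 of 3 rose, with a median of 0.62. Mus81 rose by 0.69 ± 0.13 and its partner Eme1 by 0.62 ± 0.17. Slx4, the scaffold that binds several nucleases, was 0.24 ± 0.11 higher and did not pass.

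In the Fanconi core complex, 4 of 8 rose, with a median of 0.44. Fanca, a scaffold subunit, read 1.05, 1.04 and 1.33 on control arrays and 1.90, 1.82 and 2.35 on Atg5f/f;Vav arrays. The groups did not overlap, and Fanca rose 1.85-fold (log2 0.89 ± 0.17, adjusted p = 0.0168, limma; probe at chr8:125792210-125792269, mm9). The other subunits that rose were Fance at 0.59 ± 0.14, which contacts FANCD2, Fancb at 0.55 ± 0.13, which holds the catalytic subunit, and Fancf at 0.41 ± 0.12. Fancl, that catalytic ubiquitin ligase, was 0.27 ± 0.10 higher, Fancg 0.24 ± 0.13 and Fancc 0.47 ± 0.16, none past the threshold. Fancm, the translocase that recruits the complex to DNA, differed by -0.02 ± 0.13 and its groups overlapped.

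Of FANCD2-FANCI and its ubiquitin cycle, 2 of 4 rose, with a median of 0.40. Fancd2, the protein that the core complex ubiquitylates, read -3.48, -3.66 and -3.14 on control arrays and -2.42, -2.76 and -1.98 on Atg5f/f;Vav arrays. It had the highest fold change of the 39, 2.06-fold, and the widest spread among the 5 with the highest rise (log2 1.04 ± 0.23, adjusted p = 0.0193, limma; probe at chr6:113541170-113541229, mm9). Its probe was also the dimmest of the 39 representing probes, though well above background on all 6 arrays. The other Fancd2 probe was too dim to test, so the rise rests on 1 probe. Usp1, the deubiquitylase that ends the cycle, rose by 0.46 ± 0.13. Fanci, the partner of Fancd2, was 0.35 ± 0.16 higher with overlapping groups, and Ube2t, the ubiquitin-conjugating enzyme, 0.32 ± 0.13 higher, and neither passed.

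The order of arrays within a group was shared by most members. Control replicate 3 was the highest control array for 30 of 39 members, and control replicate 2 the lowest for 28. Atg5f/f;Vav replicate 3 was the highest of its group for 28 members and replicate 2 the lowest for 22. In a list of 30 replication and cell cycle genes the same arrays took these places for 27, 27, 26 and 19 genes, whereas over all genes they did so for 43.0%, 40.7%, 44.7% and 25.5%. What sets these array differences was not tested.

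The members' probes gave different values within a gene. The 39 members had 88 probes, of which 84 were tested, 27 called higher and 2 called lower, and 4 were too dim to test. Of 62 tested probes with a RefSeq mRNA accession, 26 were higher (41.9%), against 22.5% of all such probes on the array. Of 22 with another accession, mostly Ensembl transcripts, 1 was higher (4.55%), against 8.91% of all such probes. Median changes were 0.35 and -0.00 for the members and 0.05 and -0.23 for all probes of the same kinds. The members' second median includes probes that passed the filter through the control arrays. Those of Rad54b (-0.66) and Ube2t (-0.90) were well above background on 3 control and 0 Atg5f/f;Vav arrays. Those of Fanci (-0.29) and Rad51ap1 (-0.31) were so on 3 and 1. Their changes are not exact. With any probe counted, 23 members had a probe called higher: the 21, and Brca2 and Chek1.

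Atr showed this most fully, with 8 probes. The RefSeq probe rose by 0.58, while the 7 Ensembl probes ranged from -0.18 to 0.14 and none was called. The RefSeq probe read 1.98, 1.93 and 2.28 on control arrays and 2.53, 2.51 and 2.88 on Atg5f/f;Vav arrays, so every Atg5f/f;Vav array was above every control. The brightest of the Ensembl probes read -0.39, -0.34 and -0.41 against -0.42, -0.40 and -0.14, with groups that overlapped. Their first 30 bases are given because the Atr call turns on the RefSeq probe alone (mm9, plus strand).
Atr RefSeq probe from base 7966, chr9:95851956-95851985: tgaaggacatgtgcattacctcatacaaga
Atr Ensembl probe from base 4461, chr9:95804322-95804351: tgcctgctggtaagcatgaagattggagtt

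For Brca2, the probe nearest the end of the mRNA was called and the others were not. It starts at base 10442 and read 1.48, 1.44 and 1.72 on control arrays and 1.95, 1.89 and 2.08 on Atg5f/f;Vav arrays, a rise of 0.43 ± 0.12 (adjusted p = 0.0391, limma). The brightest probe, from base 2126 of a second accession, read 2.19, 2.23 and 2.06 against 2.19, 2.37 and 2.37, a difference of 0.15. The probe from base 313 read -0.57, -0.56 and -0.69 against -0.81, -0.66 and -0.63, a difference of -0.09. Only the first of these had groups that did not overlap (first 30 bases of each, mm9, plus strand).
Brca2 base 10442, chr5:151372225-151372254: tggttgtcatcgactgatttaaaaagcttt
Brca2 base 2126, chr5:151339455-151339484: attctatatgtcctagttcagttgacactg
Brca2 base 313, chr5:151325787-151325816: aatgcccgttgaatacaaaaggagaccaac

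Brca1 and Fanca had the same order. The Brca1 probe from base 6257 rose by 0.71, whereas that from base 2348 differed by 0.03 (adjusted p = 0.883, limma). The Fanca probe from base 4415 rose by 0.89, whereas those from bases 1856 and 167 differed by 0.18 and 0.24 and were not called. The 2 probes of Fancc, on different accessions, had values on opposite sides of 0, with 0.47 from base 2396 of NM_007985 and -0.50 from base 3073 of NM_001042673, with an adjusted p of 0.0573 and 0.0574 (limma). Fance rose at both of its probes, by 0.59 and 0.80, and Blm at both of its RefSeq probes, by 0.58 and 0.88. One Ensembl probe of Ube2t was well above background on 3 control arrays and on 0 Atg5f/f;Vav arrays, and it passed the filter only through the group in which it was brighter. The Atg5f/f;Vav level has only an upper limit there, at least 1.82-fold lower, the control mean being set against the higher of the probe's own signal and the dimmest signal well above background on each array. Its place among the 2 probes called lower is therefore no support for a fall of Ube2t.

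**Figure D2:**
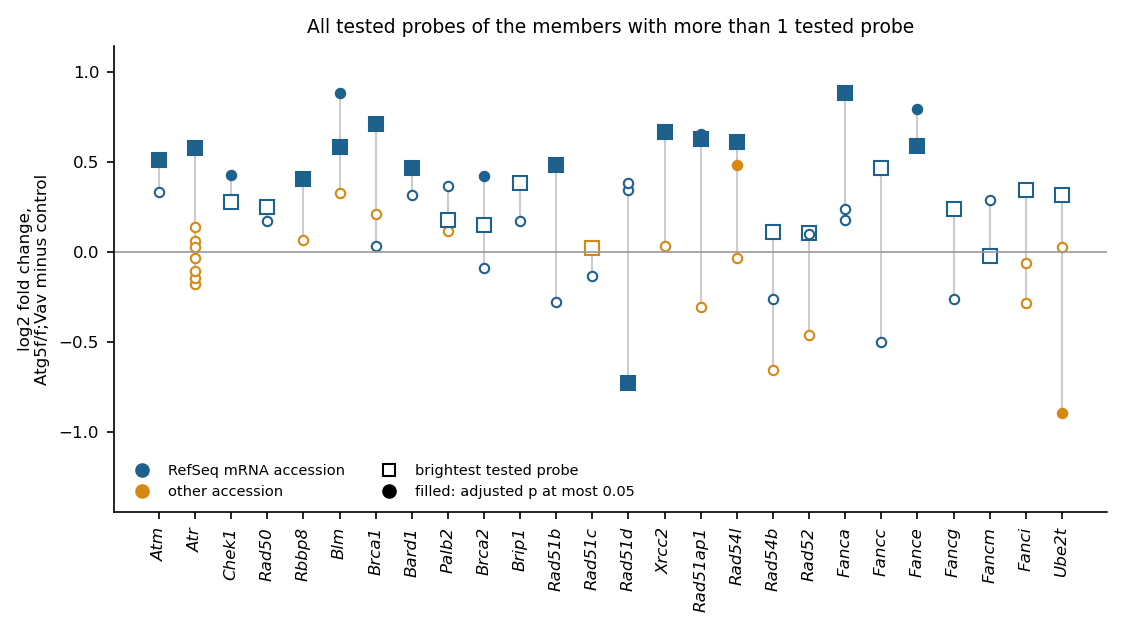
Log2 fold change of each tested probe of the 26 members with more than 1 tested probe. Blue marks RefSeq mRNA accessions and orange other accessions, squares the brightest probe that represents the gene, and filled symbols an adjusted p of at most 0.05; Atr, Rad51d, Fancc and Ube2t are among those with probes on both sides of 0.

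For 14 members, 2 or more tested probes lay on the same RefSeq mRNA. The probe nearest the end had the higher signed log2 value in 11 of 14, and in 10 of the 12 whose probes were at least 1000 bases apart. The median difference was 0.26 in both sets. Over all 4375 such mRNAs on the array the last probe was higher in 56.2%, with a median difference of 0.04, and over the 2340 at least 1000 bases apart in 69.8%, with a median difference of 0.18. In that last set the median change was -0.13 at the first probe and 0.03 at the last, so signed values shifted upward toward the end. For the 12 members at least 1000 bases apart these medians were 0.17 and 0.36. Changes without their sign were not compared, and the cause of the shift was not tested. Atm, Rad51ap1 and Rad51d were the 3 members with the higher value at the first probe.

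**Figure D3:**
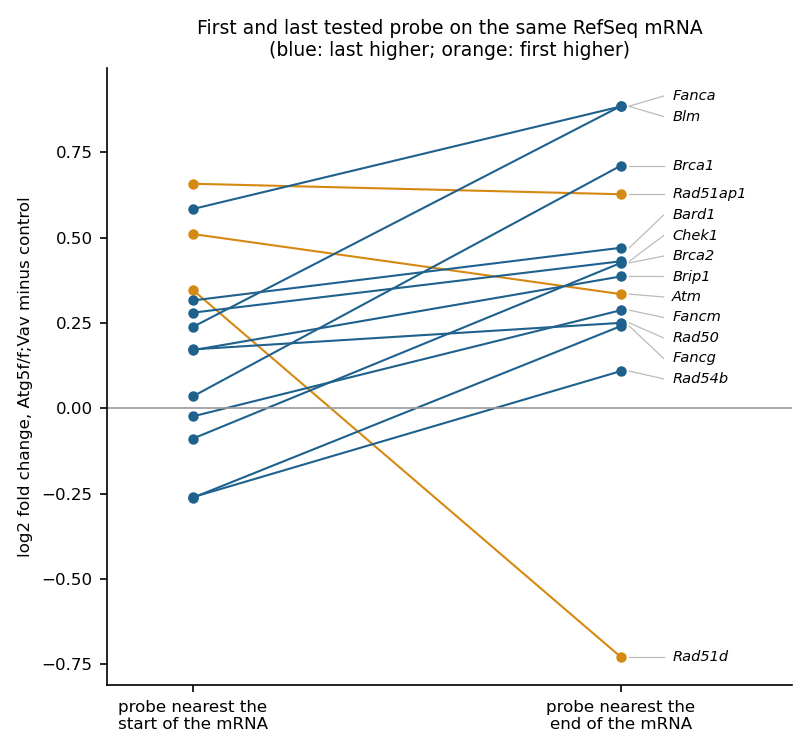
Log2 fold change at the tested probes nearest the start and nearest the end of the same RefSeq mRNA, 1 line per member, 14 members. Blue lines, 11 in all, rise toward the end of the mRNA and the 3 orange lines fall, Rad51d most steeply, from 0.35 to -0.73.

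The rest of the pathway was read from a list of 39 further homologous recombination and Fanconi genes. Of these, 19 rose and 2 were called lower, with a median of 0.38. The 3 with the largest rise were Recql, a RecQ helicase, at 0.81, Gen1, a resolvase of Holliday junctions, at 0.80, and Mnd1, a factor of meiotic strand exchange, at 0.69. The 3 subunits of the single-strand binding protein RPA, Rpa1, Rpa2 and Rpa3, rose by 0.60, 0.54 and 0.53, and were named after their values were seen. The 2 genes called lower were Fan1, a nuclease of crosslink repair, at -0.67, and Dmc1, the meiotic recombinase, which was well above background on 3 control arrays and 2 Atg5f/f;Vav arrays and so has no exact change.

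Other repair pathways held smaller shares of called genes. In non-homologous end joining, which rejoins ends without a template, 0 of 10 genes rose and Xrcc4 fell by 0.49 on the log2 scale, with a median of 0.15. By limma 2 of the 10 were higher at an unadjusted p under 0.05, and the methods' t-test called 0 genes of any list after adjustment. Nearest a call there were Xrcc6, at 0.36 (adjusted p = 0.0532, limma), and Polm, a polymerase that fills ends, at 1.06 ± 0.36 (adjusted p = 0.0576, limma). Polm read -2.07, -2.58 and -1.89 on control arrays and -1.80, -1.16 and -0.40 on Atg5f/f;Vav arrays, without overlap, and its difference is above that of each of the 39 members. In base excision repair 8 of 20 rose and 2 fell, with a median of 0.29, led by Fen1, the flap nuclease of replication and repair, at 0.95 and Lig3 at 0.68, and on the other side by the glycosylase Neil2. Neil2 was well above background on 3 control arrays and 2 Atg5f/f;Vav arrays, and its change was -2.17 with all arrays and -1.46 without Atg5f/f;Vav replicate 3. In nucleotide excision repair 7 of 19 rose, with a median of 0.37, led by Ercc8 and Rad23b, both at 0.73. Over these pathways and mismatch repair, 4 in all, 16 of 56 rose and 3 fell (28.6% higher), with a median of 0.25. The differences between lists were not tested.

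Genes of replication and the cell cycle had a higher median than the members. Of 30 genes, 28 rose and 0 fell (by limma, also 0 lower at an unadjusted p under 0.05), with a median of 0.70, and Ccne1, Plk1 and Aurkb rose the most, by 1.32, 1.17 and 1.09. For 29 of these 30 (96.7%) the groups were apart, against 56.0% of all genes. The summed signal of the list was 349.9 to 427 times the 75th percentile on the control arrays and 547 to 664 times on the Atg5f/f;Vav arrays. Of 19 E2F and DREAM regulators, which switch such genes on and off, 6 rose, with Mybl2 at 1.17, E2f4 at 0.87 and E2f8 at 0.82, and Rbl2 and Tfdp2 fell by 0.49 and 0.48 on the log2 scale. The part of a higher share of cycling cells in the members' values was not tested.

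**Figure D4:**
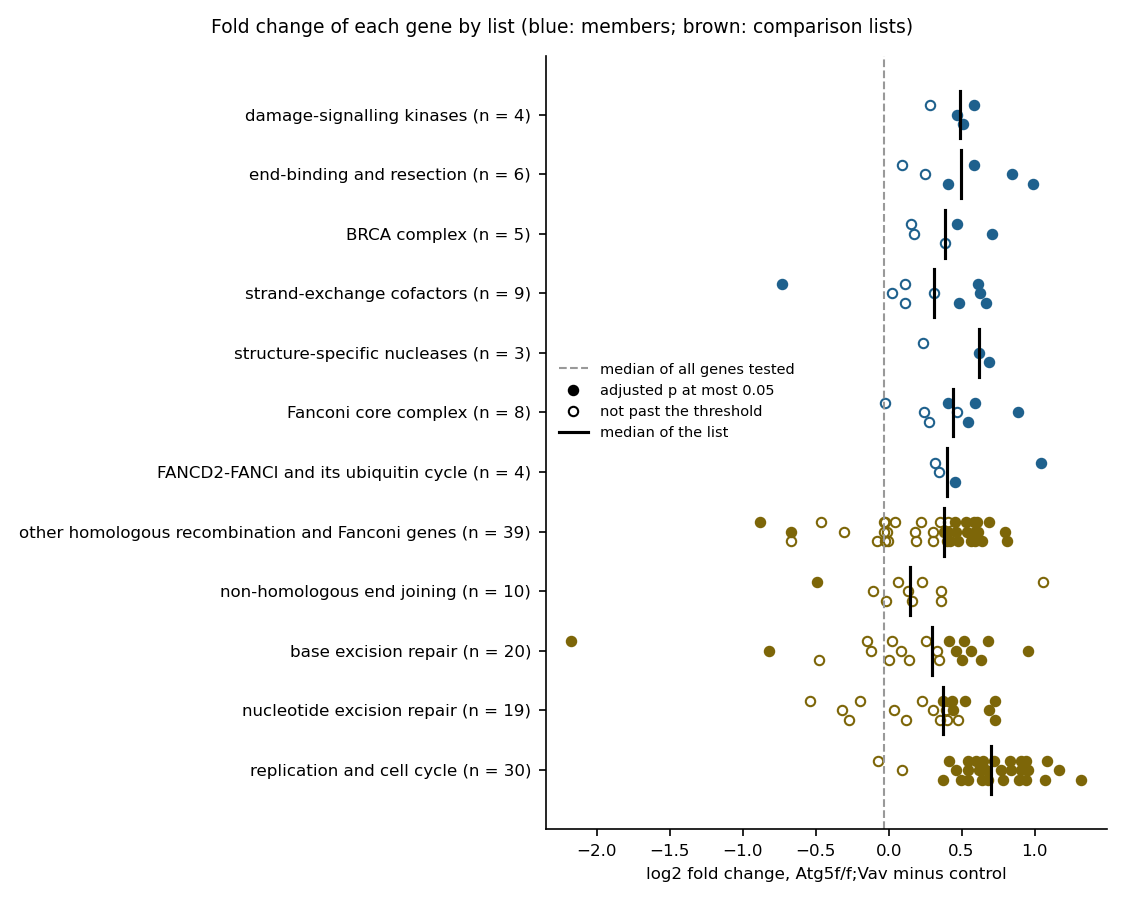
Log2 fold change of each gene, by role for the members (blue) and for 5 comparison lists (brown), with filled points past the threshold, black bars at the list medians and a dashed line at the median of all genes, -0.03. Medians run from 0.31 to 0.62 among the member roles, 0.15 to 0.38 among the other repair lists, and 0.70 for replication and cell cycle genes.

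Markers of stem cells and of other marrow cells also differed between groups. For mice of this age the study's lineage stain held antibodies to Gr-1, Ter119, IL7R, B220, CD4 and CD8, a gate meant to remove most mature granulocytes, erythroid cells and lymphocytes. Of 12 stem cell markers 0 rose (by limma, 1 higher at an unadjusted p under 0.05) and 5 fell, led by Mecom at -1.75, Hlf at -1.65 and Procr at -1.56, and their summed signal was 76.3 to 84.8 on the control arrays and 53.4 to 65.2 on the others. Of 11 erythroid markers 6 rose, led by Car1 at 3.80, Gata1 at 3.0 and Klf1 at 2.95, while Hba-a1, Alas2 and Hbb-b1 fell by 2.26, 2.07 and 1.92 on the log2 scale. Their summed signal was 236 to 520.4 on the control arrays and 101 to 170.2 on the others. Hba-a1, at 8.90, 8.84 and 7.72 on the control arrays, dominated the sum there, so the sum does not stand for all 11 markers. Of 13 granulocyte and macrophage markers 3 rose, led by Ctsg at 1.91, and 5 fell, led by S100a8 at -1.38, Ltf at -1.38 and S100a9 at -1.34. Their summed signals overlapped, at 218 to 329 on the control arrays and 275 to 326 on the others. That sum adds markers that rose to markers that fell, so the overlap does not mean that the 13 were unchanged. Of 8 B lymphoid markers 1 was called higher, Cd79a, which was well above background on 1 control array and 3 Atg5f/f;Vav arrays, of 5 T and NK lymphoid markers tested 0 were called by limma (1 lower at an unadjusted p under 0.05), and of 6 megakaryocyte markers 1 was called higher and 3 lower. Of 9 stromal markers tested 4 were called lower, and their summed signal was 10.6, 41.3 and 31.1 on control arrays and 7.15 to 9.88 on the others, so control replicate 1 lay close to the Atg5f/f;Vav arrays. Among these, Ppbp (megakaryocyte), Col1a1 (stromal) and Klrb1c (T and NK lymphoid) were well above background on 3 control arrays and 0 Atg5f/f;Vav arrays. They therefore entered the test only through the group in which they were brighter. Klrb1c was the T and NK marker that was lower before adjustment, so that value is no support for a fall. Col1a1 read -4.14, 3.23 and 2.95 on control arrays, with control replicate 1 far below the others. The defining T cell genes Cd3g and Cd8a and the stromal genes Col3a1, Lum and Cdh5 were among those too dim to test. Of the 2 genes that encode the gate, Ly6a (Sca1) was 1.57 higher (adjusted p = 0.00623, limma) and Kit -0.38 (adjusted p = 0.0563, limma). The part of these cells in the members' values was not tested.

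Promoters were read for the letters of cell cycle motifs, in windows of 250 bases before to 50 after the start (RefSeq, GRCm38.p6), on both strands. A window was found for 30 of 39 members. The CCAAT box, CCAAT, was present in 19 of 30 windows (63.3%), against 37.4% of all promoters and 42.6% of those of tested genes. It was present in 12 of 16 windows of members called higher and 7 of 14 of the others. The E2F letters TTTCGCGC were in 1 of 30 windows (3.33%), that of Rad51c, against 0.323% of all promoters and 0.678% of those of tested genes. TTTGGCGC was in 0 windows, against 0.514% and 1.02%. The CHR letters TTTGAA were in 3 windows (10%), those of Bard1, Eme1 and Rad51b, against 17.9% and 15%. Lists and tested genes were counted by gene, with a match in any window of the gene, whereas all promoters were counted singly. In 24 windows of the replication and cell cycle genes, the CCAAT box was present in 18 (75%), each of the E2F words in 4 (16.7%) and TTTGAA in 8 (33.3%). A match is only a match of letters. Among members called higher with a window, the 3 with the largest rise were Mre11a, Fanca and Brca1, and the last 100 bases before their starts are shown in the direction of transcription, because each holds the box, with CCAAT or its reverse complement ATTGG in capitals.
Mre11a, chr9:14784554-14784653, plus strand: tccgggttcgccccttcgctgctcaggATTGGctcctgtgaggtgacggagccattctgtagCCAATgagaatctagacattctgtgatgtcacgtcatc
Fanca, chr8:123318577-123318676, minus strand: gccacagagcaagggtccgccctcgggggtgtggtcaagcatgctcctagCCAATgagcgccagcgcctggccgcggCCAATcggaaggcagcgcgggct
Brca1, chr11:101551956-101552055, minus strand: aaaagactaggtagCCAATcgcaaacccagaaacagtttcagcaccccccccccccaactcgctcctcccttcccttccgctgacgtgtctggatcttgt
Mre11a and Fanca hold the box at 2 places in these windows and Brca1 at 1. The coordinates of the promoters are of GRCm38.p6 and those of the probes of mm9, and the builds are not to be mixed.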

How the data were processed

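LSK cells of 3 control and 3 Atg5f/f;Vav samples were measured on 1-colour Agilent arrays, grouped by their labels. The authors deposited 1 scanner file per array, with intensity corrected for background by Feature Extraction 12.0.3.1, and a table of normalised signal, equal to intensity over the 75th percentile of the array's 62976 spots. Here log2 intensity was scaled by subtracting the 75th percentile of the 59305 non-control spots on the same array. The scanner software marked 64 to 81 spots per array as outliers, which were dropped, and none was saturated. Spots of a probe were averaged. A probe entered the fit when 3 or more of the 6 arrays read it well above background. The fit used limma 3.58.1 (R 4.3.3) with lmFit, then eBayes, 2-sided p-values, Benjamini-Hochberg adjustment across the 32074 probes and a threshold of 0.05. Depth cannot be counted on arrays, whose number limits the precision.

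The brightest tested probe represented a gene. Members and lists were chosen with earlier results of these data known, so no test was made over a list. Values per array are given for the 5 called members that rose most and the up to 5 that fell most (1 fell), for members not called with a change over 0.5 (none) and for members whose called probes disagree (none); Atr and Brca2 were added after their probes were seen. Of each other list at most 3 genes were named each way, beside those said to be chosen later.

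Alternatives were normexp (offset 50), quantile normalisation, the 75th percentile over detected probes, the deposited signal, no filter, a filter on all 6 arrays, outliers kept, an eBayes trend, a block on the replicate number, the methods' t-test, leaving out each array and averaging all probes of a gene. The RefSeq mRNA probe farthest along its transcript was added after seeing the data. All arrays shared 1 slide and 1 scan, so neither could be fitted as a block. In simulated data of 3 against 3 arrays, with 200 of 32066 probes changed, 44 of 100 probes with a log2 change of 1 and 81 of 100 with a change of 2 were recovered by limma, and 6 unchanged probes were called. In the real data 18.7% of genes were called higher and 15.3% lower, a far larger share. The simulated rates therefore do not give the recovery in the real data. Probe positions are those of the array design (mm9), and promoters came from RefSeq (GRCm38.p6). Gene names are those of the scanner files. Some genes of the lists are not reported here.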

Additional observations from a re-analysis of the deposited data

How the results depend on the processing

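The number of members called depended on the scaling, the filter and single arrays, and the 37 members above 0 became 31 with the 75th percentile over detected probes, 35 with quantile normalisation, 34 with the mean of probes and 35 with the RefSeq probe farthest along. Members called higher were 21, and 15 with quantile normalisation, 10 with the 75th percentile over detected probes and 13 with the mean of a gene's probes. They were 5 with no filter (Exo1, Fanca, Mus81, Fancd2 and Mre11a) and 0 with the methods' t-test (27 higher and 1 lower at its unadjusted p under 0.05). The causes of these differences were not tested. Members called lower were 1, and 2 with quantile normalisation, 0 with the mean of probes and 0 with the methods' t-test. The members' median of 0.46 moved to 0.25 with the 75th percentile over detected probes, where the median of all genes moved to -0.24, and to 0.31 with the mean of probes. Of the further homologous recombination and Fanconi genes 19 were higher, and 8 with quantile normalisation, 7 with the 75th percentile over detected probes, 4 with no filter, 12 with the mean of probes and 0 with the t-test. Of the replication and cell cycle genes 28 were higher, and 18 with quantile normalisation, 12 with no filter and 0 with the t-test. Of the other 4 repair pathways 16 were higher, and 8, 6 and 4 with quantile normalisation, the 75th percentile over detected probes and no filter, and 0 with the t-test. With 1 array left out, members called higher ranged from 0 to 18 and lower from 0 to 1, their median from 0.37 to 0.53, and the 3 other counts from 0 to 14, 0 to 25 and 0 to 16; the 0 came without control replicate 1 or control replicate 2, where 124 and 108 of all genes were called higher against 3887, and 11 members were called higher without Atg5f/f;Vav replicate 2. Over all genes, 1618 were higher and 1212 lower with no filter, and 0 in either direction with the t-test. Sign changes that involved a call were Rad51c at -0.33 with quantile normalisation, Rad51d at 0.0012 with the mean of its probes and Rad51b at -0.28 with the RefSeq probe farthest along its transcript; the others were members not called, such as Nbn at -0.12 and Brca2 at -0.06 with the 75th percentile over detected probes. Same-numbered arrays deviated from their group means with correlations of -0.07, 0.19 and 0.11, and differently numbered arrays with -0.30 to 0.13. Same-numbered arrays also lay in the same column of the slide. Whether the replicate numbers pair the arrays is not settled by these values. With the replicate block, 21 members were higher and 1 lower, Fancc passing (adjusted p = 0.0458, limma) and Rad51b not (adjusted p = 0.0634, limma), the members' median stayed at 0.46, and the block moved no other listed count by more than 1.5 times.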
